A study of Mus musculus with 2 samples.

Results

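H4K16ac peaks at the ends of noncoding RNA genes made up 2256 of the 58229 wild-type peaks (3.87%) and 2080 of the 55149 KAT8-cKO peaks (3.77%). A peak was a member if its nearest edge lay within 1 kb of an annotated end of a noncoding gene and more than 1 kb from every end of a protein-coding gene. The gene positions were those of RefSeq on GRCm38.p6, the assembly behind mm10, and the 16925 noncoding genes were grouped as long noncoding RNA (lncRNA, 12727 genes), microRNA (miRNA, 1228), small nucleolar RNA (snoRNA, 1340), small nuclear RNA (snRNA, 1004), transfer RNA (tRNA, 408) and other noncoding RNA (218). A gene with at least 1 member peak is called marked. Because the table of genes carries no strand, either end of a gene counted, and a marked end can be a start or a 3′ end. Some peaks served several genes: 101 wild-type members lay at 2 noncoding genes and 26 at 3 or more, against 83 and 19 KAT8-cKO members, and 56 and 45 lay at genes of more than 1 class.

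The study profiled acetylation of histone H4 at lysine 16 by CUT&Tag, in which an antibody brings a transposase to the modified nucleosomes so that the DNA beside them is tagged and sequenced. Both libraries came from mouse macrophages grown from bone marrow in M-CSF (20 ng/ml), a growth factor of this lineage, and exposed for 2 h to R848, an agonist of the endosomal RNA receptor TLR7, at 100 ng/ml. One group is labelled WT and the other KAT8-cKO, read here as a conditional knockout of the acetyltransferase KAT8, with 1 library each. The labels name no Cre driver, no age of the animals and no unstimulated or antibody control, and neither list measures how complete the deletion was. With 1 library per group no difference could be set against variation between animals, no test between genotypes was possible, and the intervals below are 95% Wilson intervals over peaks or genes that cover counting error only. In a bulk profile, an acetylated site in fewer cells and weaker acetylation in all cells cannot be told apart.

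Noncoding genes are transcribed by different machineries. RNA polymerase II makes lncRNAs and most miRNA precursors from promoters of their own or from the promoter of a host gene, and most vertebrate snoRNAs are cut out of the introns of host transcripts. RNA polymerase III makes tRNAs, 5S ribosomal RNA, 7SK, 7SL and the vault and Y RNAs from short genes, many of them present in near-identical copies. H4K16ac is placed mainly by KAT8, loosens the contacts between nucleosomes and is found at the promoters and bodies of transcribed genes.

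The promoters below, from 250 bases before to 50 bases after an annotated start, show what a peak of these lists covered at lncRNA genes of known function. They are RefSeq sequences on GRCm38.p6, written 5′ to 3′ along the gene. Capitals mark a GC box (GGGCGG or its reverse CCGCCC), an ETS core (CCGGAA or TTCCGG) or a TATA box (TATAAA or TTTATA). The first 5 lay wholly under member peaks of both lists and the last 2 under a wild-type member peak only.
Oip5os1, chr2:119594046-119594345, plus strand: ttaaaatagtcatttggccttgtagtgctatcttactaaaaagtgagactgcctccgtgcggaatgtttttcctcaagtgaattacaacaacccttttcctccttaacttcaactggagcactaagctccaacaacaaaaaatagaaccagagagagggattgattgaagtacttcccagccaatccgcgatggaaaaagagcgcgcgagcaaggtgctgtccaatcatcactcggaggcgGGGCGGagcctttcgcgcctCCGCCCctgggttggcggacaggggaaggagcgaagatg
Dancr, chr5:74092810-74093109, plus strand: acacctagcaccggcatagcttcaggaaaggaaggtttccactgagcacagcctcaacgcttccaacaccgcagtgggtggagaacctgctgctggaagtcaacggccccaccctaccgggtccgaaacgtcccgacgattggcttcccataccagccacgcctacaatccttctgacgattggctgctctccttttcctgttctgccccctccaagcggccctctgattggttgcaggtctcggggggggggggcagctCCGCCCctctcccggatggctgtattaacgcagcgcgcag
Chaserr, chr7:73558346-73558645, minus strand: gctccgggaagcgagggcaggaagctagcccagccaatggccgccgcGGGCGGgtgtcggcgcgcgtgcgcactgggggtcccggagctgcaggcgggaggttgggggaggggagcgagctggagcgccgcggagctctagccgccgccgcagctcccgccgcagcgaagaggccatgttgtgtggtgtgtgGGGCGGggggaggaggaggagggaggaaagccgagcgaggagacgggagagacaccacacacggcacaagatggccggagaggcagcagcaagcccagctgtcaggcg
Snhg8, chr3:123508287-123508586, minus strand: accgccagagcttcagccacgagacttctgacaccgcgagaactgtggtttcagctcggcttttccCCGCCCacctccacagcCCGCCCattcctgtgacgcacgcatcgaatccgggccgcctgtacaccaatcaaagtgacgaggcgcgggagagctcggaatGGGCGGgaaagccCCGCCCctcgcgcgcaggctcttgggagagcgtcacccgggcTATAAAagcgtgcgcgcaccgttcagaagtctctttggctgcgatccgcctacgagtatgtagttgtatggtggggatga
Mir22hg, chr11:75461289-75461588, plus strand: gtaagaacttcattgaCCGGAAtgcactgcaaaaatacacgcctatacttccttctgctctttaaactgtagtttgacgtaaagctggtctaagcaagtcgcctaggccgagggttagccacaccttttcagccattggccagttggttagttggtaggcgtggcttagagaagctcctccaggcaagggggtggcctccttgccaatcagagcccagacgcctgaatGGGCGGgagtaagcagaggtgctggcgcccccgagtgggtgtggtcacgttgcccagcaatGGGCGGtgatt
Snhg16, chr11:116671410-116671709, plus strand: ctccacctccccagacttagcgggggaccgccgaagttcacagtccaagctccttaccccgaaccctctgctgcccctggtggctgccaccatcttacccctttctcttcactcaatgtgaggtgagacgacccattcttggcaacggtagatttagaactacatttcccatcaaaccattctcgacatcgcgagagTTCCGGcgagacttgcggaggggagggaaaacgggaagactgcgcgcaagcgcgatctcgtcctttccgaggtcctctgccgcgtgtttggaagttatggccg
Ptgs2os2, chr1:150164899-150165198, minus strand: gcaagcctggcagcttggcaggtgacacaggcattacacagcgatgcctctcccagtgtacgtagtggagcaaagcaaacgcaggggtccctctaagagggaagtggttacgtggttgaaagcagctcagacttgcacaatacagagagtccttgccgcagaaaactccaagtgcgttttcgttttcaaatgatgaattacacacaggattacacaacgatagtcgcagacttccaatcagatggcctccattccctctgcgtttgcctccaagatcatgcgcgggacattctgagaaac

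The 5 promoters under peaks of both lists held 1 to 4 GC boxes each, and Snhg8, which has 4, also has a TATA box. Their CpG dinucleotides numbered 15 in Oip5os1, 18 in Dancr, 30 in Chaserr, 30 in Snhg8 and 12 in Mir22hg. Snhg16, under a wild-type peak only, has 22 CpG, an ETS core and no GC box, and Ptgs2os2 has 12 CpG and none of the motifs searched, so its sequence carries no capitals.

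For the miRNA genes named below, the mature sequences follow with the seed (bases 2 to 8, the part that pairs with targets) in capitals. The pair miR-132-3p and miR-212-3p have the same seed, lie side by side on chromosome 11 and shared 1 wild-type peak.
miR-132-3p: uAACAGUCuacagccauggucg
miR-212-3p: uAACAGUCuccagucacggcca
miR-146b-5p: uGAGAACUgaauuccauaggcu
miR-9-5p: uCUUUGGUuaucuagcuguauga
let-7i-5p: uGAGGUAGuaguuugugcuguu
miR-6236: gCCGUCGCcggcagucagg
miR-101c: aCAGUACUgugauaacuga

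Of the noncoding genes, wild-type peaks marked 2200 (13.0%, 12.5 to 13.5) and KAT8-cKO peaks 1966 (11.6%, 11.1 to 12.1). The rule keeps out peaks beside protein-coding ends. With any peak at an end counted, the shares of noncoding genes were 19.4% and 17.6%, those of protein-coding genes 46.8% and 43.3%, and those of all these genes together 34.9% and 32.1%. The classes differed among themselves. LncRNA genes were marked in 13.2% (12.6 to 13.8) and 11.6% (11.1 to 12.2), miRNA genes in 10.6% (8.99 to 12.4) and 10.9% (9.29 to 12.8), and snoRNA genes in 16.6% (14.7 to 18.7) and 16.9% (15.03 to 19.04). The snRNA genes had the lowest shares, 5.48% (4.23 to 7.06) and 4.38% (3.28 to 5.83). For tRNA genes the shares were 15.9% (12.7 to 19.8) in wild type and 11.0% (8.35 to 14.4) in the KAT8-cKO list, and for the other noncoding RNAs 22.5% (17.4 to 28.5) and 15.6% (11.4 to 21.0). For tRNA and for the other noncoding RNAs the intervals of the lists overlapped.

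**Figure D1:**
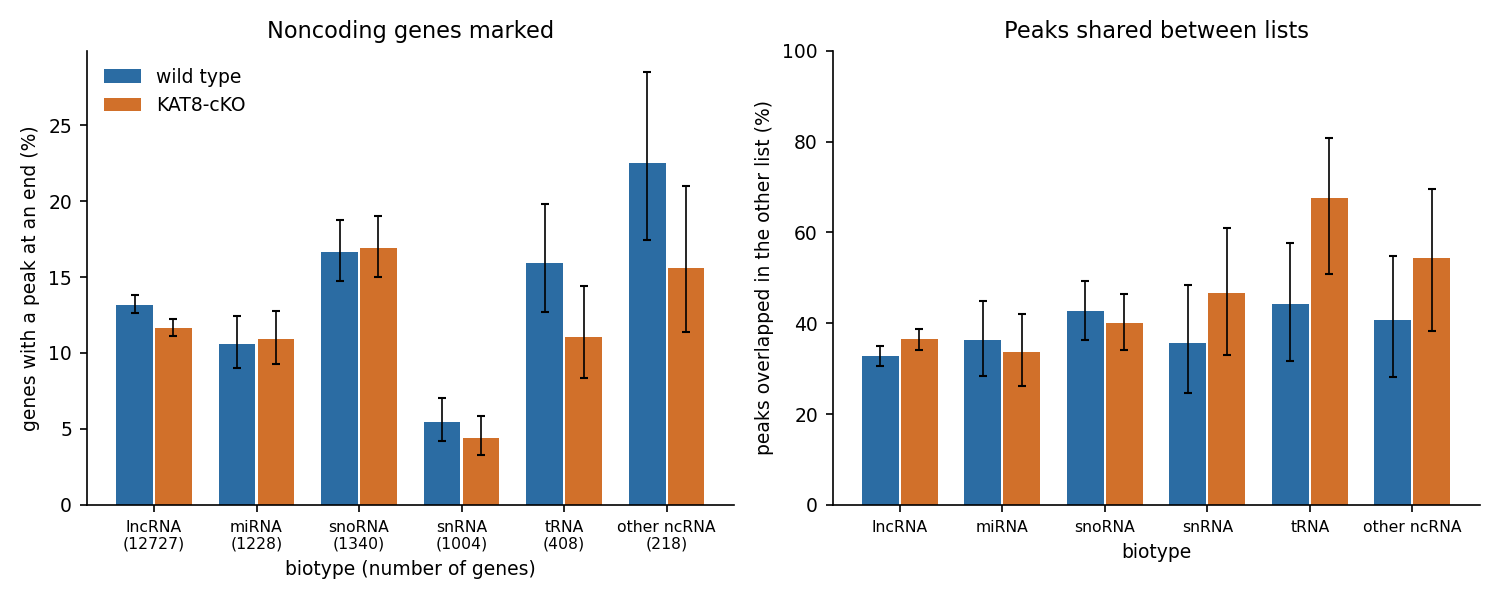
Share of genes marked (left) and share of member peaks overlapped by at least 1 bp in the other list (right) for 6 classes of noncoding genes, in wild type (blue) and the KAT8-cKO list (orange), with 95% Wilson intervals as bars. The snRNA genes have the lowest shares marked, and tRNA genes stand at 15.9% (wild type) and 11.0% (KAT8-cKO).

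Both lists marked only 905 noncoding genes, with 1295 marked in wild type alone, 1061 in the KAT8-cKO list alone and 13664 in neither. Thus 58.9% (56.8 to 60.9) of the genes marked in wild type and 54.0% (51.8 to 56.2) of those marked in the KAT8-cKO list had no member peak in the other. With any peak at an end counted in either list, the shares were 44.6% and 38.8% for noncoding genes, 23.6% and 17.4% for protein-coding genes, and 28.7% and 22.5% for all of them. By class, the share marked in wild type alone was 60.3% for lncRNA, 58.5% for miRNA, 52.0% for snoRNA, 58.2% for snRNA, 46.2% for tRNA and 59.2% for the others. Of the tRNA genes both lists marked 35, with 30 in wild type alone and 10 in the KAT8-cKO list alone, so that 22.2% (12.5 to 36.3) of the genes marked in the KAT8-cKO list lacked a wild-type member peak. Genes marked in both lists had stronger peaks than genes marked in 1 list. The strongest peak of each gene had a q-value (the peak caller's p-value adjusted for multiple testing) under 0.05 at 592 of the 905 in wild type (65.4%, 62.3 to 68.4), but at 510 of the 1295 genes of wild type alone (39.4%, 36.8 to 42.1) and at 387 of the 1061 of the KAT8-cKO list alone (36.5%, 33.6 to 39.4). Their median folds over the peak caller's background were 3.07, 2.79 and 2.73. Strong peaks, here those whose −log10 q was 5 or more, lay at 9 genes of wild type alone and 7 of the KAT8-cKO list alone, against 131 of the genes marked in both by their wild-type peak. A gene marked in 1 list alone may still have an overlapping peak in the other list that is not a member there. The strongest peak was so overlapped at 37 of the 1295 genes and at 34 of the 1061. How many of the 9 and 7 genes were among them was not counted. A gene could be marked in both lists by separate peaks, as 182 of the 905 were.

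Peaks at noncoding gene ends had folds close to those of the whole lists. Their median was 2.88 in wild type and 2.78 in the KAT8-cKO list, against 2.90 and 2.78 for all peaks, with quartiles of 2.56 to 3.21 and 2.53 to 3.14. A q-value under 0.05 was reached by 1086 of the wild-type members (48.1%, 46.1 to 50.2) and 957 of the KAT8-cKO members (46.0%, 43.9 to 48.2), against 46.9% and 47.0% of all peaks. Strong peaks numbered 139 among wild-type members (6.16%, 5.24 to 7.23) and 102 among KAT8-cKO members (4.90%, 4.06 to 5.92), against 7.12% and 4.86% of all peaks. With 10 as the threshold there were 60 and 41. The ratio of KAT8-cKO to wild-type counts was therefore 0.734 at the threshold of 5 and 0.683 at 10, between those of protein-coding ends, 0.484 and 0.288, and of all other places, 0.849 and 0.929. Sequencing depth and background also set such counts, and their part in these ratios was not tested. The classes had like medians, from 2.41 for other noncoding RNAs to 2.93 for snoRNAs in wild type and from 2.42 to 2.88 for the same classes in the KAT8-cKO list. Members also overlapped protein-coding gene bodies, 39.8% in wild type and 41.9% in the KAT8-cKO list, where the mark may belong to either gene.

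For sharing too, members lay between protein-coding ends and all other places. A member peak of the wild-type list was overlapped by a KAT8-cKO peak in 34.2% of cases (32.3 to 36.2), and a KAT8-cKO member by a wild-type peak in 37.4% (35.3 to 39.5), against 33.2% and 35.6% of all peaks. At protein-coding ends the shares were 60.7% and 67.8%, and elsewhere 26.4% and 28.0%. Median widths had the same order: in wild type 431 bp at protein-coding ends, 304 bp for members and 278 bp elsewhere. In the KAT8-cKO list they were 382, 296 and 271 bp. A wider peak more readily touches another, and the part of width in these shares was not tested. Within a class of strength the members again lay between these places, except for the strongest. Among wild-type members 20.5% were shared at a q-value of 0.05 or more, 30.6% at a −log10 q up to 2, 50.4% from 2 to 5 and 97.1% from 5 upward. For protein-coding ends the same steps were 30.8%, 46.3%, 72.8% and 95.7%, and for peaks elsewhere 16.6%, 26.3%, 42.9% and 93.1%. In the KAT8-cKO list the members had 24.8%, 35.7%, 62.2% and 94.1%. Of the 139 strong wild-type members 135 were overlapped in the other list, and of the 102 strong KAT8-cKO members 96 were. Over the 772 overlapping pairs that start from a wild-type member the folds of the lists went together, with a Pearson correlation of 0.716 on the log2 scale and a Spearman correlation of 0.513, or 0.647 and 0.499 for the 764 pairs without the very strong peaks. This describes pairs of peaks that share a locus and its base composition, and neighbouring pairs are not independent.

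**Figure D2:**
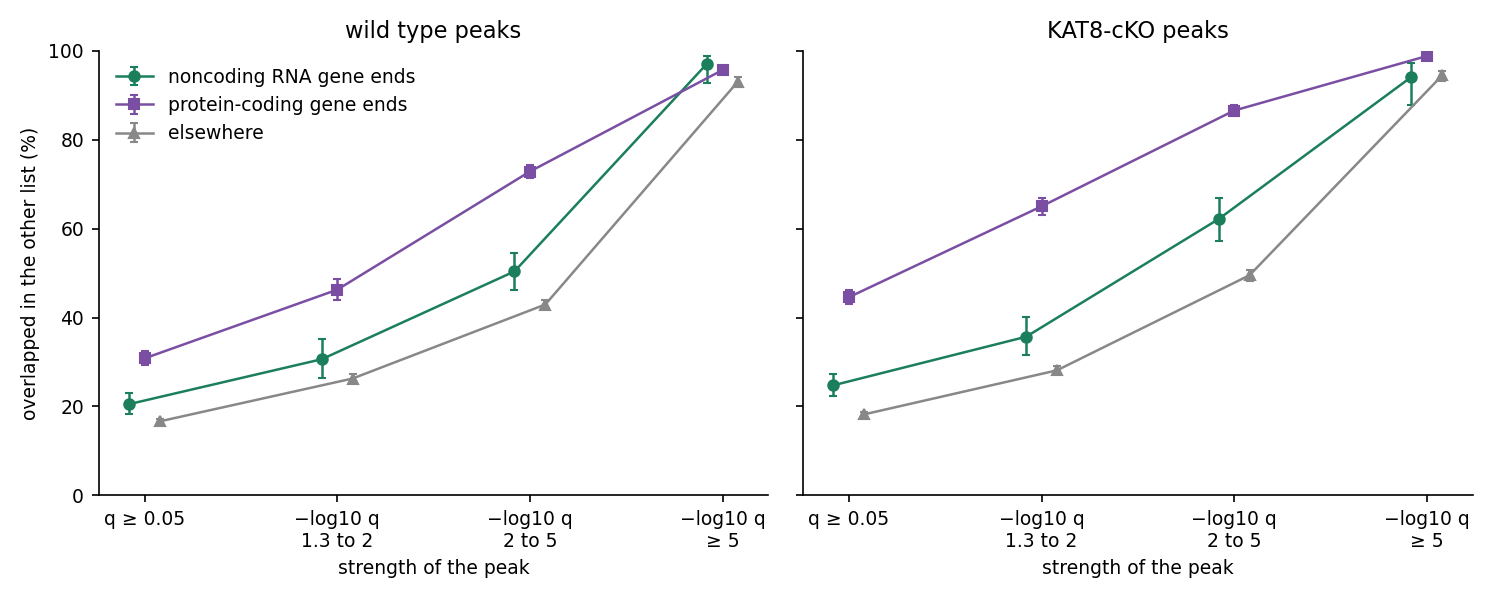
Share of peaks overlapped in the other list, with 95% Wilson intervals, in 4 classes of peak strength for wild-type peaks (left) and KAT8-cKO peaks (right). Peaks at noncoding ends (green circles) lie between those at protein-coding ends (purple squares) and those elsewhere (grey triangles) in the 3 weaker classes, and all 3 places exceed 90% in the strongest.

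By tRNA, 23 of 52 wild-type member peaks were shared (44.2%, 31.6 to 57.7) and 23 of 34 KAT8-cKO member peaks (67.6%, 50.8 to 80.9). For snoRNA the shares were 42.7% and 40.2%, for miRNA 36.2% and 33.6%, for snRNA 35.6% and 46.7%, and for lncRNA 32.8% and 36.5%. Counted per length of sequence, windows of 1 kb around noncoding ends and outside protein-coding windows held 39.0 wild-type and 36.1 KAT8-cKO summits per Mb. Protein-coding windows held 130.0 and 119.9, and the rest of each chromosome, up to its last annotated base or peak, 17.7 and 16.9. Gaps in the assembly were not taken out of that rest, so its density is a low estimate. The windows of tRNA genes had 86.2 and 59.7 summits per Mb, those of snoRNA genes 74.8 and 83.2, those of miRNA genes 61.3 and 62.9, those of lncRNA genes 36.2 and 33.0 and those of snRNA genes 26.3 and 20.5.

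Where strand was known, lncRNA starts carried peaks more often than 3′ ends. This was examined at 5600 lncRNA genes longer than 4 kb that had a strand in the promoter table and both ends more than 2 kb from any protein-coding end. In wild type 497 had a peak at the start (8.88%, 8.16 to 9.65) and 258 at the 3′ end (4.61%, 4.09 to 5.19), and in the KAT8-cKO list 468 (8.36%, 7.66 to 9.11) and 259 (4.63%, 4.11 to 5.21). Both ends of the same gene were marked at 36 and 50 genes. At the 1410 of these genes with a curated transcript the start was marked in 11.4% and 10.7% and the 3′ end in 3.83% and 4.68%. For the 4190 known from predicted transcripts alone the values were 8.02% and 7.57% at the start and 4.87% and 4.61% at the 3′ end. A start marked in wild type was also marked in the KAT8-cKO list in 42.5% of cases (38.2 to 46.8), and a 3′ end in 34.1% (28.6 to 40.1).

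The summits gathered at the starts. Of the wild-type pairs of peak and gene, 32.2% (28.4 to 36.3) had their summit within 250 bp of the start, with a median position 60 bp into the gene, but 13.7% (10.1 to 18.3) within 250 bp of a 3′ end. The KAT8-cKO list gave 32.1% (28.2 to 36.3) and 16.1% (12.2 to 20.9), with a median position 98.5 bp into the gene at starts. Member peaks that covered an annotated end of any noncoding gene were stronger and more often shared than members farther off. Distance ran from the nearest edge, so a wider peak more readily covers an end and touches a peak of the other list. The part of width in this difference was not tested. The 460 wild-type peaks that covered an end had a median fold of 3.05, were strong in 15.7% (12.6 to 19.3) and overlapped the other list in 51.3% (46.7 to 55.8). The 822 lying more than 500 bp away had 2.84, 4.01% (2.87 to 5.58) and 28.8% (25.8 to 32.0). In the KAT8-cKO list the 383 covering peaks had 2.87, 8.88% (6.42 to 12.1) and 53.3% (48.3 to 58.2), against 2.78, 3.77% (2.62 to 5.39) and 31.5% (28.3 to 34.9) beyond 500 bp. At the boundary of the rule the values were alike: the 316 wild-type peaks in the outermost 200 bp of the window had a median fold of 2.80 and 27.5% shared, and the 287 in the next 200 bp outside it had 2.85 and 25.8%. The KAT8-cKO list had 2.78 and 32.2% for 283 peaks inside, and 2.70 and 33.5% for 284 outside.

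**Figure D3:**
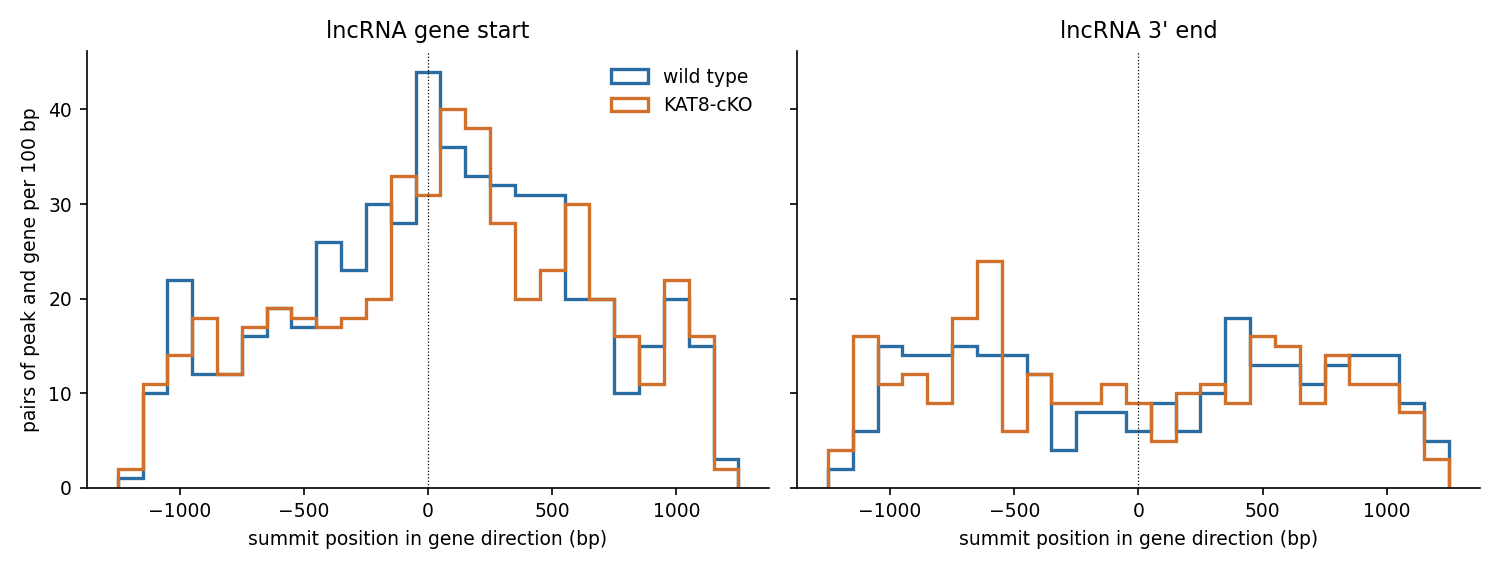
Number of pairs of peak and gene by the position of the summit relative to the start (left) or 3′ end (right) of lncRNA genes longer than 4 kb, in bins of 100 bp with positive values along the direction of transcription. In both lists the counts peak near the start, where 32.2% of wild-type and 32.1% of KAT8-cKO summits lie within 250 bp, and show no such maximum at the 3′ end.

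Marking also varied with the kind of lncRNA. Wild-type peaks marked 14.6% (13.5 to 15.9) and KAT8-cKO peaks 13.4% (12.3 to 14.6) of 3319 lncRNA genes with a curated transcript, against 12.7% (12.0 to 13.4) and 11.0% (10.4 to 11.7) of 9408 predicted ones. LncRNA genes that overlapped a protein-coding gene, in part or wholly, were marked in 16.02% (14.99 to 17.1) and 15.04% (14.03 to 16.1). The others were marked in 11.6% (10.9 to 12.3) and 9.73% (9.11 to 10.4). LncRNA genes of 2 to 10 kb had 15.3% and 12.8%, and those of 50 kb or more 8.32% and 7.99%.

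Promoters under peaks of both lists were rich in CpG. The 186 lncRNA promoters that member peaks of both lists overlapped had a median of 19 CpG dinucleotides (quartiles 7 to 28) and a median GC content of 61.7%. The 243 under a wild-type member peak alone had a median of 7 CpG (4 to 13.5) and 53.3% GC, the 169 under a KAT8-cKO member peak alone 6 (4 to 11) and 54.7%, and 8557 lncRNA promoters under no peak and away from protein-coding ends 3 (2 to 6) and 47.0%. These groups hold promoters of 172, 223, 154 and 7055 genes, since a gene may have several starts, some only a few bases apart. A GC box on either strand was found in 55.4%, 27.2%, 27.8% and 8.54% of these promoters, and in 35.7% of all 32851 promoters of the table. An ETS core was found in 19.4%, 8.64%, 11.8% and 5.77%, against 14.9% of all promoters. Protein-coding promoters, 21262 in all, had a median of 13 CpG (4 to 24) and 56.3% GC, with a GC box in 46.2% and an ETS core in 18.7%. The AP-1 site TGACTCA (reverse TGAGTCA) was found in 4.30% of the promoters under peaks of both lists, 11.9% of those under a wild-type peak alone, 10.7% of those under a KAT8-cKO peak alone and 6.64% of those under none, against 5.20% of all. The palindromic E-box CACGTG was found in 9.14%, 9.88%, 7.69% and 5.24%, against 7.15% of all. A TATA box was found in 6.45%, 10.3%, 7.69% and 17.97%, against 13.6% of all. Matches of different motifs may share letters at their edges, and a match of letters is not a bound site.

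**Figure D4:**
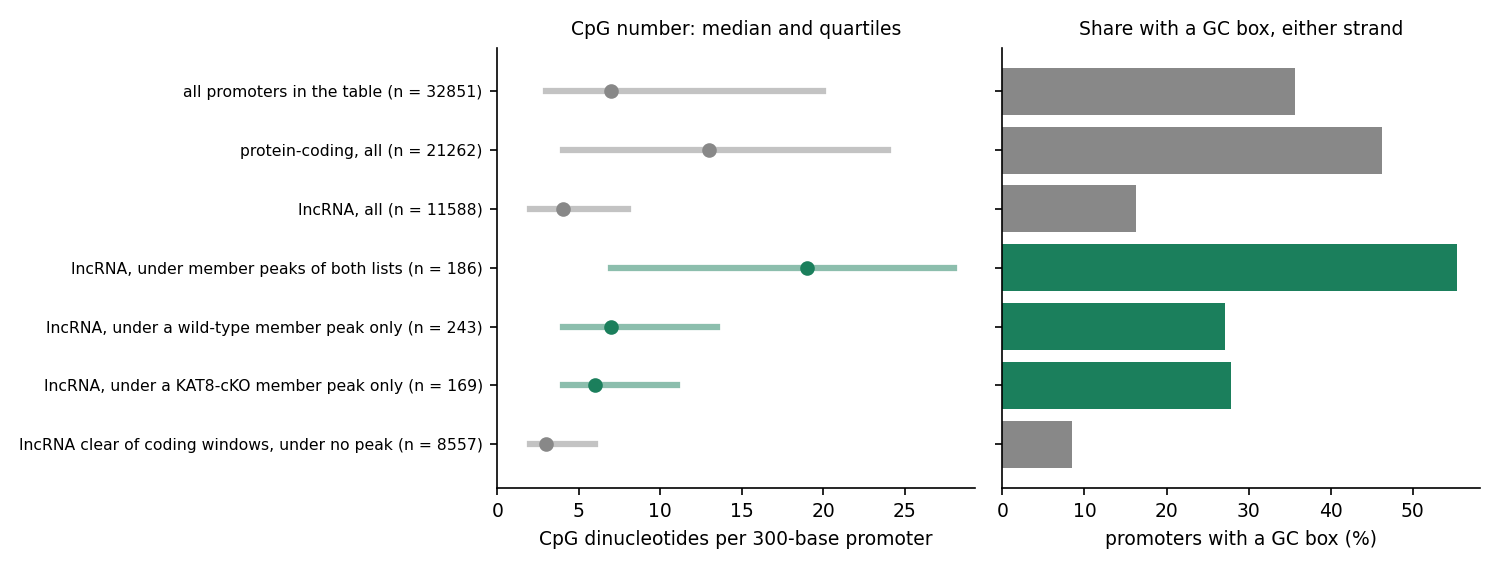
CpG dinucleotides per promoter (left, median as a point and quartiles as a bar) and share of promoters with a GC box on either strand (right) for lncRNA promoters under member peaks (green) and for comparison groups (grey). Promoters under peaks of both lists have a median of 19 CpG and a GC box in 55.4%, against 3 CpG and 8.54% for lncRNA promoters under no peak.

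Among lncRNAs of known function, several had a peak over their start in both lists. Here and below, pairs of values are folds with wild type first. Oip5os1 (also called Cyrano), which directs the decay of miR-7, had a wild-type peak at chr2:119593973-119594698 with 5.12-fold enrichment and 8.08 as its −log10 q, and a KAT8-cKO peak at chr2:119594022-119594700 with 3.19 and 2.02. Chaserr, which restrains its neighbour Chd2, had 5.41 and 5.47, with −log10 q of 12.9 and 10.5. Dancr, a host of a snoRNA, had 4.37 in wild type and 4.88 in the KAT8-cKO list. The peaks at these starts were 679 to 1048 bp wide and covered the annotated start in both libraries. Crnde, an lncRNA first described in colorectal tumours, had 6 and 4.40, and Dubr, which acts in muscle differentiation, 5.86 and 3.42. Prkag2os1, named as antisense to the gene of a regulatory subunit of AMP-activated kinase, had 5.62 and 4.33 in peaks inside the gene, 655 and 799 bp from its 3′ end. Crnde, Dubr, Prkag2os1 and Chaserr were chosen after their values were seen.

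The strongest lncRNA peaks by fold were mostly at predicted genes and common to both lists. After the very strong sites described at the end, Gm13483 (9.71, chr2:50296245-50296842), Gm40034 (8.61) and Gm39382 (8.31) led in wild type. Their overlapping KAT8-cKO peaks had 5.72, 7.38 and 8.75. The Gm13483 peak overlapped a protein-coding gene body. In the KAT8-cKO list Gm51701 had 9.91, and its wild-type partner had 6.99. Among peaks with no overlap in the other list the highest wild-type folds were 5.31 at LOC115486431, 4.80 at Gm35149 and 4.55 at Gm41545, with −log10 q of 7.47, 7.09 and 5.44. The highest in the KAT8-cKO list were 4.70 at AI506816 (−log10 q 6.12), 4.48 at Gm45999 and at Gm29418 with its neighbour Gm4718 (5.41 for each peak), and 4.44 at Gm42358 (6.17). AI506816 nevertheless had a wild-type peak over its start, chr5:23712443-23712822 with a fold of 3.85, beside the KAT8-cKO peak at chr5:23712009-23712347. At Gm10706 the KAT8-cKO peak (4.26, −log10 q 5.26) was the only member peak.

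Of 21 snoRNA host RNAs, transcripts whose introns carry snoRNAs, both lists marked 6, with 5 in wild type alone, 4 in the KAT8-cKO list alone and 6 in neither. The last 6 include Gas5, Snhg1 and Snhg6, which had peaks beside a protein-coding end and so do not count as members. In all, wild-type peaks marked 11 and KAT8-cKO peaks 10, against 2200 and 1966 of the 16925 noncoding genes. Beside Dancr, those in both lists were Epb41l4aos (3.85 and 3.06), Snhg8 (3.61 and 4.05), Snhg15 (3.49 and 2.78), Snhg17 (3.36 and 3.07) and Snhg20 (2.71 and 2.79). At Snhg20 the peaks had the same edges in both lists, chr11:117076271-117076901. The wild-type fold was the higher at 3 of these 6 genes and the KAT8-cKO fold at 3. Those of wild type alone included Snhg16 (3.21, −log10 q 2.54), Snhg5 (3.18, 1.65), Snhg9 (2.65, 1.72), Zfas1 (2.43, 1.15) and Snhg12 (2.39, 0.754). At Zfas1 a KAT8-cKO peak overlapped the wild-type peak but lay beside a protein-coding end. In the KAT8-cKO list alone Snhg3 had 2.88 (−log10 q 1.52), and Snhg7, Snhg11 and Snhg10 had 2.14 to 2.59, none with a q-value under 0.05. Snhg10 also had a wild-type peak, which lay beside a protein-coding end.

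The lncRNAs of macrophages and inflammation were marked in wild type at 6 of 12 genes and in the KAT8-cKO list at 3 of those 6. These counts stand beside 13.2% and 11.6% of all lncRNA genes marked, and 60.3% of those marked in wild type had no KAT8-cKO member peak. In both lists were Mirt1 (3.42 and 3.63 for its strongest peaks, which do not overlap, beside an overlapping pair at its other end), Malat1, an abundant nuclear RNA (3.24 and 2.51), and Trp53cor1, a target of p53 (2.49 and 2.83). At Malat1 the wild-type peak, with a −log10 q of 3.31, lay 981 bp from the annotated start, and the KAT8-cKO peak, with 0.805, lay 680 bp from it. In wild type alone were Mirt2, an RNA induced by lipopolysaccharide (3.05, −log10 q 1.51), Ptgs2os2, the TLR-induced RNA also called lincRNA-Cox2 (2.94, 1.34), and Morrbid, which sets the lifespan of short-lived myeloid cells (2.49, 0.824). The Ptgs2os2 peak at chr1:150164959-150165366 lay 11 bp from the start and over 240 of the 300 promoter bases printed above. Mirt2 also had a KAT8-cKO peak, which lay beside a protein-coding end. Neat1, Pvt1, Lncpint and AW112010 had no member peak. Beside a protein-coding end, Ptgs2os had a peak in the KAT8-cKO list only and Gm16685 in both lists. The counts of 6 and 3 leave such peaks out. With them, the KAT8-cKO list gains Mirt2, Ptgs2os and Gm16685, and wild type gains Gm16685. Of 12 general lncRNAs, Oip5os1 and Meg3 were marked in both lists and Norad, which binds Pumilio proteins, in wild type alone (2.68, −log10 q 0.884), which makes 3 and 2 genes of 12 beside the same 13.2% and 11.6%.

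**Figure D5:**
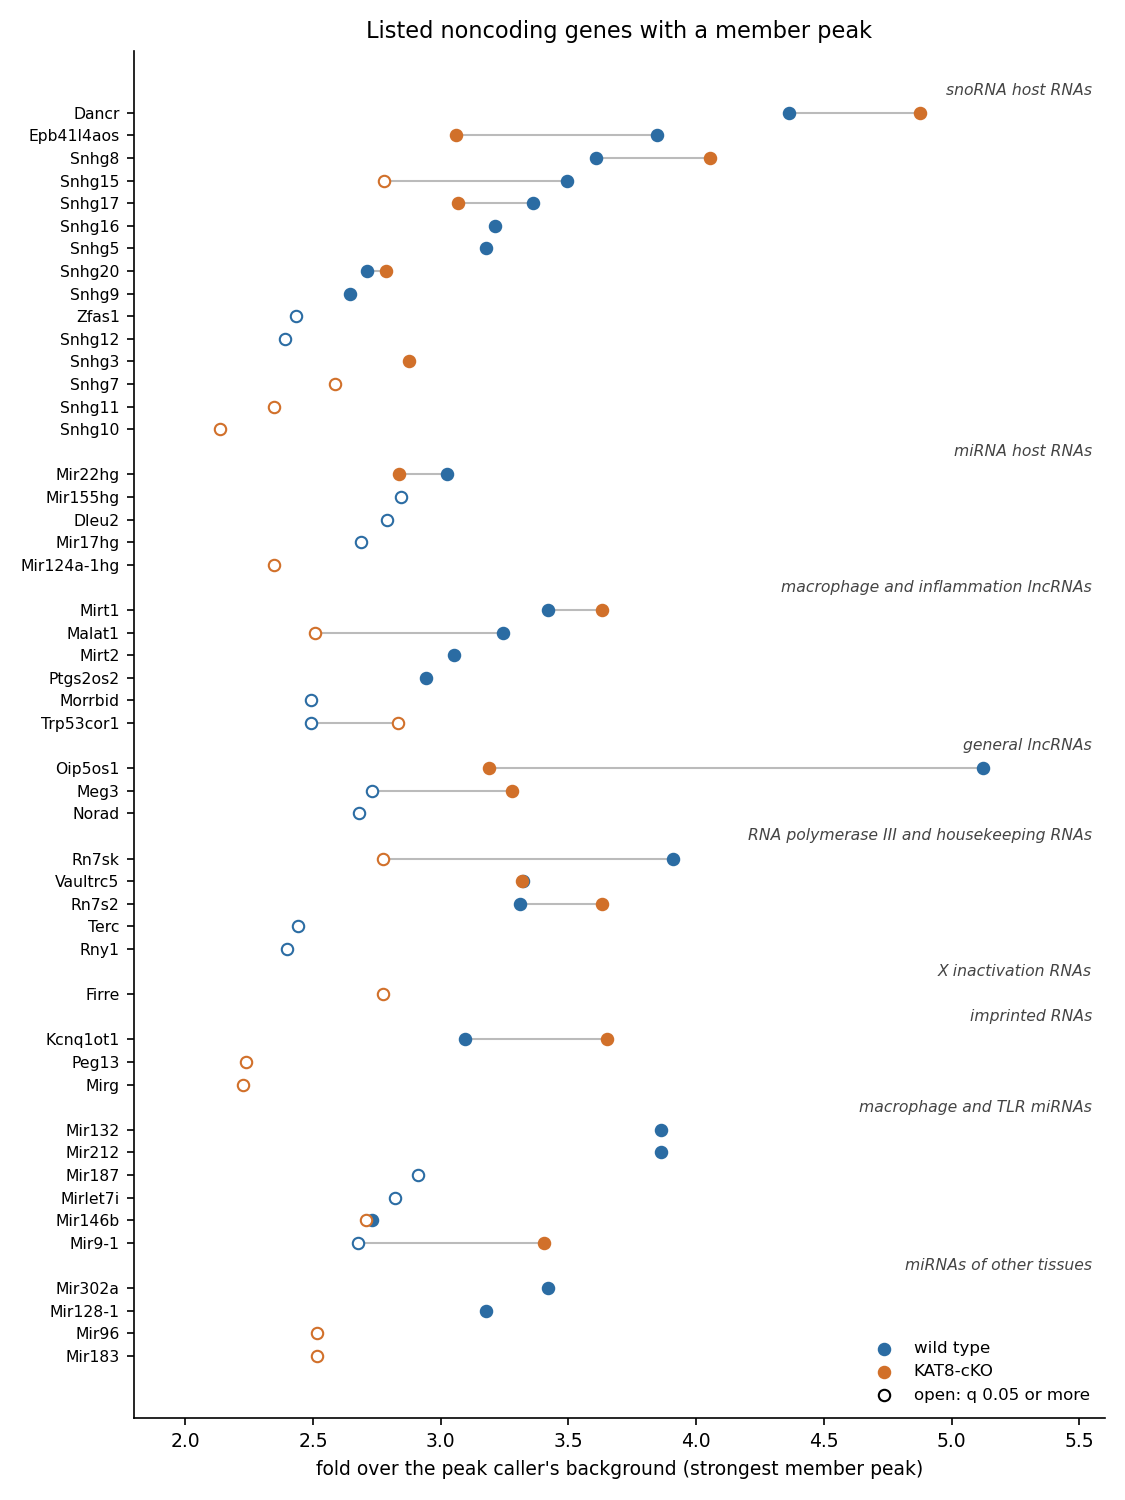
Fold of the strongest member peak at each listed noncoding gene that had one, in wild type (blue) and the KAT8-cKO list (orange), grouped by list, with open circles for peaks with a q-value of 0.05 or more. A grey line joins the values of a gene marked in both lists, such as Oip5os1 (5.12 and 3.19) and Dancr (4.37 and 4.88), and a lone point is a gene marked in 1 list.

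Imprinted RNAs were marked at 2 of 9 genes in wild type and at 4 of 9 in the KAT8-cKO list, and X inactivation RNAs at 0 and 1 of 5, against 13.0% and 11.6% of all noncoding genes. Kcnq1ot1, the antisense RNA that silences an imprinted domain on chromosome 7, had overlapping peaks of 3.10 and 3.65 at its start. Meg3, expressed from the maternal chromosome, had separate peaks of 2.73 and 3.28 near its 3′ end, and Peg13 and Mirg had weak KAT8-cKO peaks of 2.24 and 2.23. H19, Rian, Airn, Nespas and Snhg14 itself had no member peak. Of 5 X inactivation RNAs only Firre was marked, in the KAT8-cKO list with 2.78 and a −log10 q of 1.01, and Xist, Tsix, Jpx and Ftx were not. Wild-type peaks marked 8 of 534 noncoding genes on the X chromosome (1.498%, 0.761 to 2.93) and KAT8-cKO peaks 6 (1.12%, 0.516 to 2.43), against 13.4% and 12.0% of the 16359 autosomal ones. X-linked protein-coding genes were not counted apart, so this low share cannot be called particular to noncoding genes. The strongest X-linked member, a wild-type peak at BC065397, had 8.06-fold enrichment and a −log10 q of 17.6, and the KAT8-cKO region that overlapped it lay outside the window. On the X, 5730405O15Rik (3.42 and 2.78), Gm5636 (3.42 and 2.78) and 9530027J09Rik (3.66 and 2.78) were marked in both lists.

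Most strong snoRNA peaks came from a cluster on chromosome 7. Inside the span of Snhg14 on chr7:59272737-60450177, the imprinted region whose human counterpart is lost in Prader-Willi syndrome, lie 206 snoRNA genes, of which 34 had a member peak in wild type, 33 in the KAT8-cKO list and 22 in both. Their share, 16.5% (12.1 to 22.2) in wild type, was close to the 16.7% (14.6 to 18.9) of the 1134 snoRNA genes elsewhere. More of their peaks were strong, 16 of 40 in wild type and 18 of 40 in the KAT8-cKO list. At the other snoRNA genes these were 3 of 185 and 2 of 204. The median fold was 2.93 both inside and outside the span in wild type, and 3.20 and 2.78 in the KAT8-cKO list. Peaks inside were also more often shared, in 62.5% (47.0 to 75.8) and 65.0% (49.5 to 77.9) against 38.4% (31.7 to 45.6) and 35.3% (29.1 to 42.1). The highest were at Gm25157 (10.3 and 8.06), Gm25350 (8.17 and 7.77) and Gm23313 (6.40 and 6.67), each overlapped between the lists. These snoRNA genes are copies of a repeated unit, so reads may have been placed at the wrong copy and the values of single copies are uncertain. Among snoRNA peaks with no overlap, the highest were 4.15 at Gm22789 in wild type and 4.70 at Gm50451 in the KAT8-cKO list, the latter the same peak as at AI506816.

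Most miRNA genes overlapped a protein-coding gene. Of these 831 of 1228, wild-type peaks marked 11.7% (9.66 to 14.03) and KAT8-cKO peaks 12.8% (10.7 to 15.2). For the 397 that overlapped none the shares were 8.31% (5.98 to 11.4) and 7.05% (4.92 to 10.004). Among 38 miRNAs of macrophages and TLR responses, both lists marked 2, with 4 in wild type alone, 0 in the KAT8-cKO list alone and 32 in neither. Those 6 and 2 genes compare with 10.6% and 10.9% of all miRNA genes. Mir146b, a feedback inhibitor of TLR signalling, had overlapping peaks of 2.73 (−log10 q 1.41) and 2.71 (1.16) some 926 and 924 bp from its hairpin. Mir132 and Mir212, whose sequences are printed above, shared the wild-type peak chr11:75172877-75173139 (3.86-fold, −log10 q 4.15), which lay 543 and 249 bp from their hairpins and had no overlap in the KAT8-cKO list. Mir9-1 had separate peaks of 2.67 and 3.40, and Mir187 (2.91) and Mirlet7i (2.82) had wild-type peaks that missed a q-value of 0.05. Mir155, Mir146, Mir21a, Mir223 and Mir142, which are known for their high levels in macrophages or their induction by TLR ligands, had no member peak at their hairpins. Of 24 miRNAs of other tissues, Mir302a (3.42) and Mir128-1 (3.18) were marked in wild type, and Mir96 and Mir183 by 1 KAT8-cKO peak of 2.52.

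Host RNAs of miRNAs were marked at 4 of 7 genes in wild type and 2 in the KAT8-cKO list, against 13.2% and 11.6% of all lncRNA genes. Mir22hg had overlapping peaks over its start (3.02 and 2.84, with −log10 q of 3.79 and 2.53). Mir155hg (2.84), Dleu2, which carries the genes of miR-15a and miR-16-1 (2.79), and Mir17hg (2.69) had wild-type peaks 485 to 836 bp from an end, none with a q-value under 0.05. Of the 210 marked miRNA genes 190 had a mature sequence in the table. The search for common seeds left out chromosome 18, and 19 seeds occurred at 2 or more marked genes of the other chromosomes. The let-7 seed GAGGUAG, printed above in let-7i-5p, occurred at 4 marked genes: Mirlet7b, Mirlet7c-2, Mirlet7i and Mir7k. Other genes of the let-7 family, Mirlet7a-1, Mirlet7d, Mirlet7e and Mirlet7f-1, were marked in neither list. How often this or any seed occurs over all miRNA genes was not counted, so these counts do not show that a family was marked more often. Of all miRNA genes 10.6% and 10.9% were marked. The strongest miRNA peaks were at Mir6236 (8.26 and 12.2), Mir7655 (6.84 and 3.84), Mir5619 (6.25 and 3.15) and Mir101c (5.66 and 5.87). Beside the Mir132 and Mir212 peak, the highest without an overlap were Mir129-1 (3.86) and Mir8090 (3.66) in wild type and Mir3105 (3.47) in the KAT8-cKO list.

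In each list the strongest peak filed under snRNA lay in the Rnu3b cluster on chromosome 11, which encodes the U3 RNA of ribosomal RNA processing. Rnu3b1 had 6.05 in wild type and 3.42 in the KAT8-cKO list, Rnu3b4 4.65 and 4.12, and Rnu3b2 4.42 and 4.91. All 3 had peaks in both lists, and the copies are near-identical. Gm23205 on chromosome 18 had 5.13 and 4.06, and Gm26444 on chromosome 12 had 2.87 and 4.48. Of the 1004 snRNA genes 928 were marked in neither list.

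Among tRNA genes the strongest member was the wild-type peak at n-TVaac5, a valine tRNA gene on chromosome 13, at chr13:23414132-23414671. Its fold was 6.60 with a −log10 q of 11.8, and the overlapping KAT8-cKO peak had 3.42 and 2.37. At n-TEttc7 the folds were 4.85 and 2.49, at n-TNgtt14 4.47 and 2.81, and at the pair n-TKctt12 and n-TKctt13 3.98 and 3.95. At n-TKctt9 the folds were 3.91 in wild type and 4.10 in the KAT8-cKO list. Of wild-type peaks without an overlap, that at n-TAcgc8 and n-TGgcc8 had 4.31, that at n-THgtg4 4.10 and that at n-TEctc10 and n-TLcaa3 3.81. The highest of the KAT8-cKO list, 3.51, served 4 tRNA genes at chr3:19628498-19628821. By amino acid, the highest shares in wild type were 5 of 11 genes for histidine, 4 of 10 for tyrosine, 6 of 16 for proline and 6 of 20 for glutamate. The lowest were 0 of 22 for serine, 0 of 7 for phenylalanine, 2 of 56 for cysteine and 2 of 33 for alanine, against 15.9% of all tRNA genes. The KAT8-cKO list, with 11.0% of all tRNA genes marked, had 2, 3, 4, 3, 1, 0, 4 and 2 in the same order. Such counts are small, and genes of 1 amino acid often lie together and share a peak.

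Other noncoding genes made by RNA polymerase III gave few strong peaks. Of 13 listed RNAs of this kind and related housekeeping RNAs, both lists marked 3 and the wild-type list alone another 2, and 4 of the 8 marked in neither had a peak beside a protein-coding end. Over all noncoding genes the shares marked were 13.0% and 11.6%, and 58.9% of those marked in wild type were so in that list alone. Rn7s2, a gene of the 7SL RNA of the signal recognition particle, had overlapping peaks of 3.31 and 3.63, and Vaultrc5, a vault RNA gene that the table files under lncRNA, 3.32 and 3.32. Rn7sk, filed under snRNA, whose RNA holds the elongation factor P-TEFb inactive, had a wild-type peak of 3.91 (−log10 q 4.01) 289 bp from the gene and a separate KAT8-cKO peak of 2.78 (1.01) over its end. Terc, the telomerase RNA, and Rny1 had wild-type peaks of 2.44 and 2.40 that missed a q-value of 0.05. The 5S ribosomal RNA genes were marked in the array on chr8:123538784-123622046 alone, with 21 of its 40 genes in wild type, 16 in the KAT8-cKO list and 13 in both, and 0 of 11 copies on other chromosomes. The array peaks had folds of 1.84 to 3.61 in wild type and 1.79 to 3.16 in the KAT8-cKO list, and 13 of 19 and 8 of 15 had a q-value under 0.05. Near-identical copies make the share of single 5S genes uncertain. Among the other noncoding RNAs the strongest were Gm9919 (7.78 and 8.91), Gm4633 (3.98 and 4.43), 3110053B16Rik (3.94 and 3.14) and Scarna2, which guides modification of spliceosomal RNA (3.61 and 2.90).

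A −log10 q above 50 was found for 7 members in each list. In both lists these were 2700054A10Rik (10.1 and 9.80), Gm41530 (18.3 and 17.5), Gm46796 (20.5 and 14.7), Gm40237 (14.1 and 14.8), Gm52771 (8.60 and 8.35) and Mir101c (5.66 and 5.87). AY036118 reached it in the wild-type list, with a peak 4120 bp wide and a fold of 2.58, and Mir6236 in the KAT8-cKO list. The KAT8-cKO region overlapping the AY036118 peak had a fold of 2.69. These sites were not screened against regions prone to mapping artefact, and whether they carry H4K16ac was not tested. Without them the counts of members were 2249 and 2073.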

How the data were processed

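H4K16ac was profiled by CUT&Tag in 1 WT and 1 KAT8-cKO library, grouped by their genotype labels. Per the submitters' processing notes mm10 was the build, and Bowtie (0.12.8), DiffBind and MACS2 (2.2.7.1) are named without their roles. The sources used here state neither settings of the peak caller nor read totals, and the depth is unknown. The lists deposited by the authors hold, for each peak, the summit offset, a score, the fold enrichment that the peak caller computed, and −log10 values of p and q. Folds and q-values are the authors' and only describe or rank peaks within a list. Each library has its own list. From these lists, members, overlaps of at least 1 bp and Wilson intervals were computed in Python 3.11.15 with pandas 2.3.3, numpy 2.4.6 and scipy 1.17.1, and the overlap code was tested on simulated data. Gene positions, promoters and mature miRNAs came from RefSeq tables of GRCm38.p6. Strand was known for 9533 lncRNA genes. Gene segments, pseudogenes, mitochondrial genes and genes without coordinates were left out. "Other noncoding RNA" holds ribosomal, miscellaneous, guide, antisense, Y, small cytoplasmic, RNase P, RNase MRP and telomerase RNA genes.

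Named genes are, per class and list, those of the highest folds among peaks with and without an overlap in the other list (up to 8 lncRNA and 4 of each other class), and members of 9 lists with 145 entries, up to 8 per list by wild-type fold. Some genes were named outside this rule. They are the X-linked genes BC065397, 5730405O15Rik, Gm5636 and 9530027J09Rik, the genes of the let-7 seed, AY036118 and further snoRNA host RNAs. Crnde, Dubr, Prkag2os1 and Chaserr also fall outside it. Members and lists were chosen with earlier results of these data known. Alternatives varied peak strength, window, peak position, gene bodies, gene ends, chromosomes and overlap.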

Additional observations from a re-analysis of the deposited data

How the results depend on the processing

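No paired analysis was possible because each group has 1 library. The following values give wild type first and KAT8-cKO second, against 2256 and 2080 member peaks, 34.2% and 37.4% shared, and 13.0% and 11.6% of noncoding genes marked. With q under 0.05 in both lists there were 1086 and 957 peaks, 6.51% and 5.59% of genes were marked, and 40.9% of KAT8-cKO members were shared. The strongest 20000 peaks of each list gave 807 and 750 peaks, 38.3% and 42.3% shared, and 4.93% and 4.38% marked. Peaks whose −log10 q was 5 or more in both lists gave 139 and 102 peaks, 54.0% and 72.5% shared, and 0.827% and 0.579% marked. Windows of 500 bp gave 37.7% and 41.7% shared and 9.19% and 8.33% marked, and windows of 3 kb gave 4061 and 3720 peaks, 29.1% and 32.0% shared and 21.8% and 19.9% marked. Placing a peak by its summit gave 11.8% and 10.7% marked. Outside protein-coding gene bodies there were 1357 and 1208 peaks, 32.2% of wild-type members were shared, and 8.06% and 6.94% of genes were marked. With starts alone, for genes with strand, there were 1027 and 939 peaks, 37.7% and 41.5% shared and 9.37% and 8.50% marked. Genes clear of protein-coding windows were marked in 13.5% and 12.1%. Requiring an overlap of 50% of a peak left 24.7% and 28.6% shared. Under each of these the wild-type share of genes marked was the higher and the KAT8-cKO share of peaks overlapped was the higher, where both are given. The second direction mostly follows from the size of the lists. Each setting had similar numbers of overlapped members in the lists, 772 and 777 under the rule itself, and fewer KAT8-cKO members to divide by. Leaving out the very strong peaks or the sex chromosomes, and 2 choices made after seeing the data (adding gene segments, or leaving out the Snhg14 snoRNA and 5S genes), moved each value within its interval or, for counts, by less than 1.5 times. The lists cannot show how much of a difference between genotypes comes from depth, and with 1 library per group no value carries an error between animals.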
